A study of Homo sapiens with 6 samples.

Results

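Phospholipase A2 genes were followed in SW480 cells, an established human colorectal cancer line, with and without knockdown of CNOT7. The set held the 10 genes PLA2G4A, PLA2G4B, PLA2G4C, PLA2G4D, PLA2G4E, PLA2G4F, PLA2G6, PLA2G12A, PLA2G15 and PLA2G16, taken by gene name from a table of 58735 genes. The set was chosen by the fold change of PLA2G4D between the knockdown and control libraries of this same comparison, with its relatives added by name, so its values are a description and carry no test. The study sequenced 6 RNA libraries of untreated cells, 3 labelled CNOT7 control and 3 labelled CNOT7 knockdown, to look for genes downstream of CNOT7. CNOT7 is a deadenylase subunit of the CCR4-NOT complex, which shortens the poly(A) tails of mRNAs. The knockdown was a stable line made with a short hairpin RNA, but the labels do not say which hairpin was used or whether the line is a clone or a pool. They also do not say whether the 3 libraries of a group came from separate cultures, so the p-values below measure the spread between these libraries, which may be technical. All samples are labelled SW480, although the paper names HCT116, another colorectal cancer line, for its RNA-seq.

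Phospholipases A2 cut the fatty acid from the middle position of membrane phospholipids and release a free fatty acid, often arachidonic acid, and a lysophospholipid. Arachidonic acid feeds the cyclooxygenase and lipoxygenase pathways that make prostaglandins, thromboxanes and leukotrienes, while acyltransferases put it back into the membrane. The group IV enzymes are cytosolic: PLA2G4A is the arachidonate-selective prototype, PLA2G4B, PLA2G4D, PLA2G4E and PLA2G4F are its relatives encoded near each other, and PLA2G4C is a relative that does not need calcium. In colorectal tumours the pathway is best known for prostaglandin E2, which is made downstream of the cyclooxygenases.

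PLA2G4B, PLA2G4E, PLA2G4D and PLA2G4F lie together on chromosome 15 (GRCh38, chr15:41837775-42156636). The last 3 are read from the reverse strand, and their start regions are printed because counts of these genes were higher in the knockdown libraries. The start region of PLA2G12A, the most abundant gene of the set, stands beside them for contrast. Each is the RefSeq window on GRCh38.p14 from 250 bases before to 50 bases after the annotated start, written 5′ to 3′ along the gene, and all 4 are on the reverse strand. PLA2G4D is at chr15:42094513-42094812, PLA2G4F at chr15:42156587-42156886, PLA2G4E at chr15:42050654-42050953 and PLA2G12A at chr4:109730021-109730320. Capitals mark matches, on either strand, to the TATA box TATAAA, the GC box GGGCGG, the AP-1 motif TGANTCA, the E-box CACGTG or the TEAD motif CATTCC, and neighbouring or overlapping matches run together.
PLA2G4D: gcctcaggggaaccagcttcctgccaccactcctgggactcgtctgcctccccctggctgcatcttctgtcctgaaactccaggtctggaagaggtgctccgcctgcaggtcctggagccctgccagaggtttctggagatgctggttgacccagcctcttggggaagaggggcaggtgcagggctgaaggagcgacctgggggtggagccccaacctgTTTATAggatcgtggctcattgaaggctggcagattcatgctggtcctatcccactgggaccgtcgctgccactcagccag
PLA2G4F: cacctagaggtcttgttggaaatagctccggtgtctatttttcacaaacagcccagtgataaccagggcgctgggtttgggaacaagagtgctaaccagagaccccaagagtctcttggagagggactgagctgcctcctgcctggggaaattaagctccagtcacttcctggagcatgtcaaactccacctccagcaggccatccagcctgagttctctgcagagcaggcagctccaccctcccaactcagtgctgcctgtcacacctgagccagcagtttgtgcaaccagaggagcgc
PLA2G4E: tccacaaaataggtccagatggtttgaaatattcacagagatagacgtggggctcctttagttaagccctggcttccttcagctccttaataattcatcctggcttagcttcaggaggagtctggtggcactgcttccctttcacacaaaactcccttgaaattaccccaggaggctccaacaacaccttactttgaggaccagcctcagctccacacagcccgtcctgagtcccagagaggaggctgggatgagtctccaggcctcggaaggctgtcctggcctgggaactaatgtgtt
PLA2G12A: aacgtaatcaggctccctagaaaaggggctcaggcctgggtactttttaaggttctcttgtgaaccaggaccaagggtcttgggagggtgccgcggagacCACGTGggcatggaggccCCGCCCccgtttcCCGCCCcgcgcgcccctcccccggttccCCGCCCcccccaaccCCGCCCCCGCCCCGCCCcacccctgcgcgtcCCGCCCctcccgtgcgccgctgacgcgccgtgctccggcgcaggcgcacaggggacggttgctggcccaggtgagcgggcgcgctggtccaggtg

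The PLA2G4D window held 1 match, TATAAA on the opposite strand at 31 bases before the start, a word found in 11.5% of 35116 RefSeq windows of the same length. The PLA2G4F and PLA2G4E windows held none of the 5 words. The PLA2G12A window held 7 GC boxes, all on the opposite strand, and 1 E-box at 150 bases before the start. The GC box occurred in 45.0% of all windows, the E-box in 7.26%, the AP-1 word in 7.71% and the TEAD word in 14.0%. The windows of the cluster were also poor in CpG: PLA2G4D had 6 CpG dinucleotides and PLA2G4B, PLA2G4E and PLA2G4F had 3 each, against a median of 14 over all windows. PLA2G12A had 31, PLA2G15 had 35 and PLA2G6 had 25. PLA2G4A, outside the cluster, had 3. PLA2G16, which RefSeq now calls PLAAT3, had 32 or 33 CpG at its 2 listed starts. These are letter matches in short windows and not measured binding. Windows for 9 of the 10 genes were found by gene identifier, and PLA2G4C had none.

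Depth was 23788451 to 25982493 counts in control and 27523812 to 29104872 in knockdown, so every knockdown library was deeper than every control library. CNOT7 itself fell from 179 ± 11.3 to 43.1 ± 4.31 CPM (counts scaled to library size, mean ± SD, n = 3), with 24.1% left, in the direction that the labels give. Library sizes were scaled by TMM for all CPM values. Of 17574 genes with enough counts to test, 4424 (25.2%) passed a Benjamini-Hochberg adjusted p of 0.05 in edgeR's quasi-likelihood test, 2329 (13.3%) higher and 2095 (11.9%) lower in knockdown. The median log2 fold change of all tested genes was 0.00, but it was 0.16 for genes between -1 and 0 on the log2 CPM scale and -0.06 for genes above 6. Knockdown libraries, which were also deeper, detected 27401 to 27838 genes, against 26199 to 26957 in control. Protein-coding genes took 96.5% to 96.6% of the knockdown counts, against 97.2% in control. The 7 epithelial and colorectal markers summed to 5550 to 5970 CPM in control and 5130 to 5680 in knockdown, mostly keratins; KRT8 and KRT19 were called lower and CDH1 and VIL1 higher. Markers of other cell types were low, with higher sums of endothelial ones in knockdown and an overlap for immune and fibroblast ones: 3 immune markers summed to 2.11 to 3.27 CPM in control and 2.91 to 3.32 in knockdown, 3 endothelial ones to 1.64 to 2.33 and 2.62 to 3.44, and 4 fibroblast ones to 9.07 to 10.7 and 10.2 to 12.0. PTPRC, which defines white blood cells, had counts in 1 library, and DCN, a fibroblast marker, in none. The part of these shifts in the results below was not tested, and in bulk RNA more cells of a type and more RNA per cell cannot be told apart.

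PLA2G4D showed the clearest separation of the set. It encodes cytosolic phospholipase A2 delta, a form described mostly in the outer layers of skin (ENSG00000159337, chr15:42067009-42094554, reverse strand). Its CPM was 7.43, 6.71 and 6.62 in control replicates 1, 2 and 3, and 32.7, 31.0 and 34.4 in knockdown replicates 1, 2 and 3. These came from 156 to 191 counts per control library and 855 to 1025 per knockdown library, so counting error was small. Every knockdown library stood far above every control library, while libraries of a group lay close together. The group means were 6.92 ± 0.445 and 32.7 ± 1.72 CPM (SD, n = 3), a ratio of 4.73. The log2 fold change was 2.24 with a standard error (SE) of 0.0923, which ranked 34 among the 17574 tested genes. The 2212 genes within 0.5 of it on the log2 CPM scale had a median log2 fold change of 0.00.

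PLA2G4F, which encodes cytosolic phospholipase A2 zeta, was higher too but from a level near nothing (ENSG00000168907, chr15:42139034-42156636, reverse strand). Its counts were 5, 6 and 4 in control replicates 1, 2 and 3, and 46, 36 and 53 in the knockdown replicates. No control library came near a knockdown library, and only the knockdown counts were high enough for the test. In CPM the means were 0.204 ± 0.0499 and 1.57 ± 0.243 (SD, n = 3), a ratio of 7.70. The log2 fold change of 2.93 had an SE of 0.358, so its margin over the 2.24 of PLA2G4D was within 2 such errors and was not tested. The 1851 genes of like abundance had a median of 0.17.

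PLA2G4E, on the far side of PLA2G4D, had too few counts for the test (ENSG00000188089, chr15:41981582-42051190, reverse strand). It encodes cytosolic phospholipase A2 epsilon, known as an N-acyltransferase in the making of endocannabinoid precursors. The counts were 0, 1 and 0 in control and 3, 7 and 3 in knockdown. The groups did not overlap, yet they rested on 1 count against 13. The ratio of the summed counts, scaled for depth, was 11.2 with a 95% exact counting interval from 1.69 to 478, which covers counting error only. Without the filter on low counts its log2 fold change was 3.09 with an SE of 1.40 and did not pass the threshold.

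PLA2G4B, the fourth gene of the cluster, had the same summed count in both groups (ENSG00000243708, chr15:41837775-41848147, forward strand). It had 6, 6 and 3 counts in control and 8, 5 and 2 in knockdown, 15 in each group, with a ratio of 0.865 (95% counting interval 0.394 to 1.90). Its count is uncertain, because 3360 of its 4446 exonic bases (75.6%) also belong on the same strand to JMJD7-PLA2G4B, a read-through transcript of the upstream gene JMJD7. How reads over shared bases were assigned is not given in the sources used here. The read-through gene itself had 121, 67 and 100 counts in control and 127, 113 and 125 in knockdown. Its log2 fold change was 0.14 (SE 0.171, adjusted p = 0.604 in edgeR's test), and the groups overlapped. JMJD7, a lysyl hydroxylase gene with 80.1% of its exonic bases shared, gave 0.20 (SE 0.248, adjusted p = 0.603 in edgeR's test). Neither gene that shares exons in this stretch was called, and the level of PLA2G4B itself was poorly measured. PLA2G4D and PLA2G4F shared no exonic base with another annotated gene, and 6.59% of those of PLA2G4E were shared, with its antisense gene.

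Genes within and around the cluster had smaller changes than PLA2G4D and PLA2G4F. VPS39, a subunit of a vesicle tethering complex, ends 2064 bases from PLA2G4F, on the same strand, and had a log2 fold change of -0.04 (SE 0.0574, adjusted p = 0.704 in edgeR's test). EHD4, an endocytic ATPase gene between PLA2G4B and PLA2G4E and 9003 bases from the latter, had -0.11 (SE 0.0533, adjusted p = 0.166 in edgeR's test). Both were well counted, with at least 1655 counts of VPS39 and 4345 of EHD4 in each library. PLA2G4D and PLA2G4F are 44479 bases apart, and PLA2G4E and PLA2G4D 15818 bases. Of 26 neighbours within 250000 bases of the cluster, 11 could be tested, and their median log2 fold change was 0.01. In edgeR's test 0 were called higher (1 at an unadjusted p under 0.05, and 0 by DESeq2) and 1 lower (9.09%). Of all tested genes 13.3% were called higher and 11.9% lower, so nothing is read from these counts. The 1 called lower was SPTBN5, a spectrin gene also between PLA2G4B and PLA2G4E. It fell by 0.51 on the log2 scale (SE 0.141, adjusted p = 0.0124 in edgeR's test), from 129 to 162 counts to 104 to 138. The call was lost without control replicate 1, and the adjusted p in edgeR or DESeq2 ranged from 0.00341 to 0.0531 over the 12 alternatives.

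**Figure D1:**
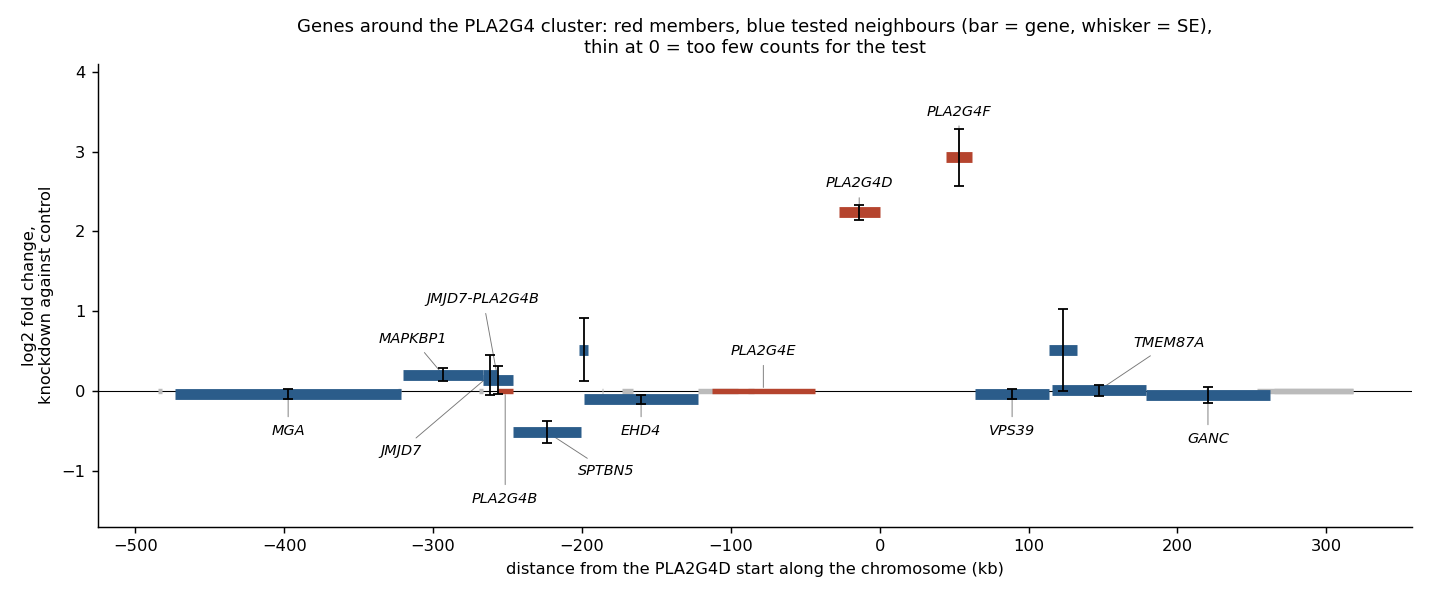
Log2 fold change (knockdown against control, vertical axis) of genes around the PLA2G4 cluster, drawn as bars along chromosome 15 by distance from the PLA2G4D start in kb, with whiskers for the SE, red for the phospholipase genes, blue for tested neighbours and thin bars at 0 for genes with too few counts. PLA2G4D at 2.24 and PLA2G4F at 2.93 stand apart from the neighbours on both sides, among which SPTBN5 at -0.51 is the 1 past the threshold.

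The prototype PLA2G4A was barely detected in these cells (ENSG00000116711, chr1:186828953-186988981, forward strand). It had 3, 2 and 4 counts in control and 14, 1 and 7 in knockdown. The groups overlapped, and knockdown replicates 1 and 2 held the highest and the lowest count of all 6 libraries. The ratio of the sums, 9 against 22, was 2.11 with a 95% counting interval of 0.936 to 5.22, and the gene was not tested. PLA2G4C, cytosolic phospholipase A2 gamma, was low but testable (ENSG00000105499, chr19:48047843-48110817, reverse strand). Its CPM was 2.10, 1.29 and 1.48 in control and 2.13, 1.88 and 2.52 in knockdown. Control replicate 1 sat inside the knockdown range, and the log2 fold change of 0.42 (SE 0.230) did not pass the threshold. An antisense gene shared 4.93% of its exonic bases.

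**Figure D2:**
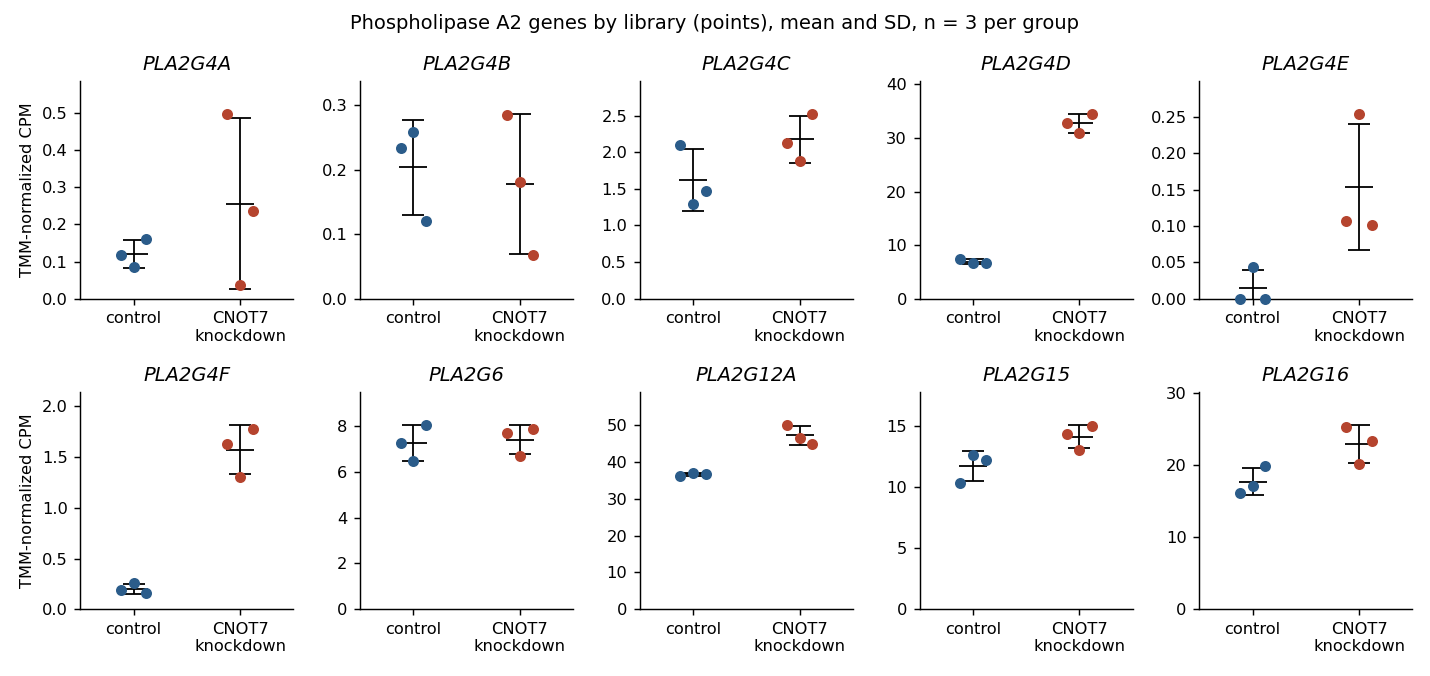
TMM-normalized CPM of each of the 10 phospholipase A2 genes, 1 panel a gene with its own vertical axis from 0, in the 3 control (blue) and 3 CNOT7 knockdown (red) libraries; points are libraries in replicate order and the black marks are the mean and SD. The groups are widely apart for PLA2G4D and PLA2G4F, apart by less for PLA2G12A, PLA2G15 and PLA2G16, and overlapping for PLA2G4A, PLA2G4B, PLA2G4C and PLA2G6.

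The other 4 members lie outside group IV. PLA2G12A encodes a small secreted phospholipase A2 (ENSG00000123739, chr4:109709989-109730077, reverse strand). Its CPM was 36.2, 37.0 and 36.7 in control and 49.9, 46.5 and 44.9 in knockdown. The control libraries differed by less than 1 CPM, so a rise to 47.1 ± 2.57 from 36.6 ± 0.426 (SD, n = 3) left the groups well apart. The ratio was 1.29 and the log2 fold change 0.36 (SE 0.0683), past the threshold. Of its exonic bases 15.7% were shared on the same strand with the unnamed gene AC126283.2.

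PLA2G16 encodes a phospholipase and acyltransferase known from fat tissue, where it restrains lipolysis (ENSG00000176485, chr11:63573195-63616883, reverse strand). Its CPM was 16.2, 17.1 and 19.9 in control and 25.4, 20.2 and 23.4 in knockdown. The highest control library and the lowest knockdown library nearly met. The means were 17.7 ± 1.90 and 23.0 ± 2.63 (SD, n = 3), with a log2 fold change of 0.38 (SE 0.101) that passed the threshold. It no longer passed when knockdown replicate 1 was left out, at a log2 fold change of 0.29.

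PLA2G15, the lysosomal phospholipase A2, was nearer to the threshold (ENSG00000103066, chr16:68245304-68261062, forward strand). The CPM was 10.4, 12.6 and 12.2 in control and 14.3, 13.1 and 14.98 in knockdown. Here too the groups did not overlap, but by a small margin between control replicate 2 and knockdown replicate 2. The log2 fold change of 0.27 (SE 0.104) was not called. It was called without control replicate 2, without knockdown replicate 2 or with a replicate block. PLA2G6 encodes the calcium-independent phospholipase A2 beta, which takes part in membrane upkeep (ENSG00000184381, chr22:38111495-38205690, reverse strand). It had 7.24, 6.45 and 8.02 CPM in control and 7.66, 6.67 and 7.86 in knockdown. The 2 groups covered the same range, and the log2 fold change was 0.03 (SE 0.124), a value whose sign changed with the settings. An opposite-strand gene shared 22.5% of its exonic bases.

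Over the set, 7 of the 10 genes had enough counts for the test. Of these, 4 were called higher, PLA2G4D, PLA2G4F, PLA2G12A and PLA2G16, against 13.3% of all tested genes. None of the 7 was called lower by edgeR, against 11.9% of all tested genes, none at an unadjusted p under 0.05 and none by DESeq2. In 5 of the 7 every knockdown library was above every control library, against 20.6% of all tested genes, and in 0 every one was below, against 18.2%. Nothing is read from these counts, since the set was put together around a gene found in this comparison. The median log2 fold change of the 7 was 0.38, with PLA2G4D and PLA2G4F above 2 and the other 5 at or below 0.42. Knockdown replicate 2 was the lowest of the knockdown libraries for 6 of the 7, all but PLA2G12A.

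**Figure D3:**
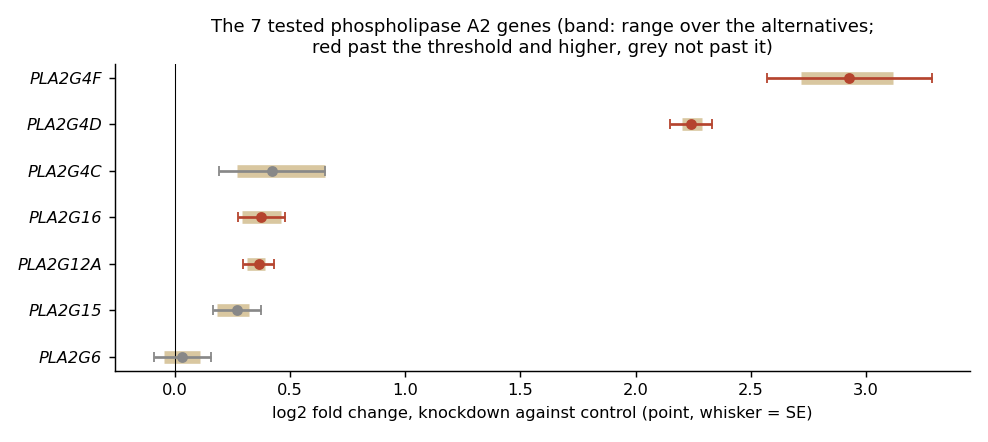
Log2 fold change (knockdown against control, horizontal axis) of the 7 tested phospholipase A2 genes, with SE whiskers and a band for the range over the alternative settings; red genes passed the threshold and grey ones did not. PLA2G4F and PLA2G4D lie above 2 under every setting run, and the bands of the others stay between -0.05 and 0.65.

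To set members beside each other, levels were expressed as TPM, which scales counts by the deposited gene length and by library size. In control the order was PLA2G12A at 25.2 ± 0.195 TPM, PLA2G16 at 20.4 ± 2.01, PLA2G15 at 9.45 ± 0.920, PLA2G4D at 4.84 ± 0.355, PLA2G6 at 3.85 ± 0.401 and PLA2G4C at 0.883 ± 0.239 (SD, n = 3). The remaining 4, PLA2G4B, PLA2G4A, PLA2G4F and PLA2G4E, were at 0.165 TPM or less. Secreted, lysosomal and adipose-type enzymes thus led, and the prototype PLA2G4A was among the last. Neighbours in this order had separate ranges except PLA2G4B with PLA2G4A and PLA2G4A with PLA2G4F. In knockdown PLA2G4D stood at 23.6 ± 1.57 TPM, after PLA2G12A at 33.4 ± 1.90 and PLA2G16 at 27.4 ± 3.45 and ahead of PLA2G15 at 11.7 ± 0.966. The ranges of PLA2G16 and PLA2G4D overlapped there, so their order was not resolved. PLA2G4F moved up to 0.956 ± 0.161 TPM, with a range that overlapped that of PLA2G4C at 1.22 ± 0.195.

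The summed level of the 10 genes was 63.1, 64.6 and 67.5 TPM in control and 109, 94.4 and 105 TPM in knockdown. PLA2G4D made up 8.31%, 7.26% and 6.80% of that sum in control and 21.8%, 23.3% and 23.8% in knockdown. The knockdown libraries therefore had a larger sum, and a larger part of it was PLA2G4D. The shares of the other abundant genes were lower: PLA2G12A went from 38.7% ± 1.43 to 32.5% ± 1.88 and PLA2G16 from 31.4% ± 1.99 to 26.5% ± 1.44 (SD, n = 3), although both had higher levels in knockdown. PLA2G4F stayed under 1.1% of the sum in every library. TPM counts transcripts and says nothing of enzyme activity.

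**Figure D4:**
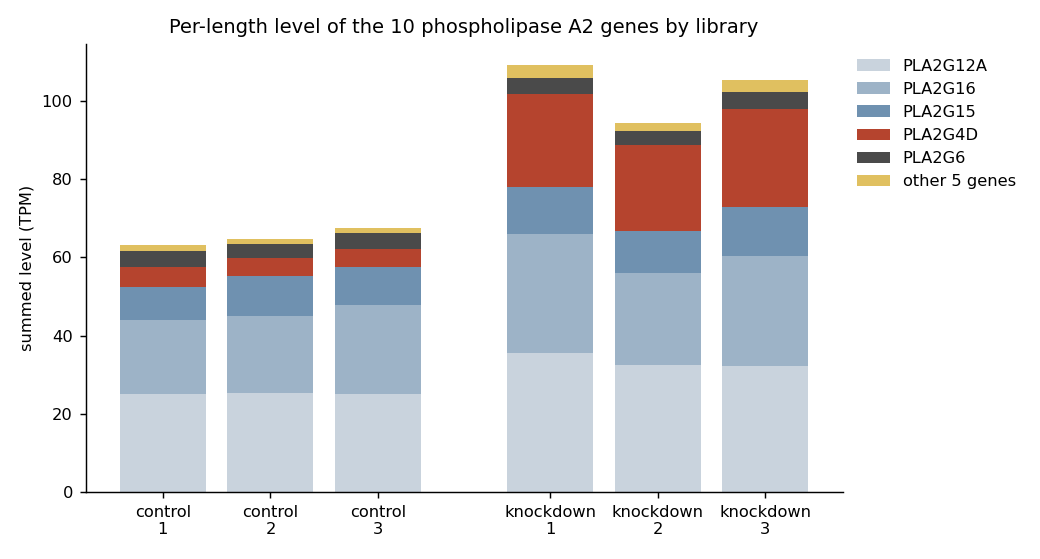
Stacked per-length level (TPM, vertical axis from 0) of the phospholipase A2 genes in each of the 6 libraries, with PLA2G4D in red and the 5 least abundant genes pooled. The red segment goes from 6.80% to 8.31% of the bar in the control libraries to 21.8% to 23.8% in the knockdown libraries.

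Other genes tied to phospholipase A2 by name, activity or binding were called in both directions. Of 27 such genes 13 could be tested, with a median log2 fold change of 0.04. Of these, 2 were called higher and 2 lower (15.4% each, near the 13.3% and 11.9% of all tested genes). PLA2G7, which was called higher, was listed with the platelet activating factor genes below and is not counted here. PLA2G2E, a secreted phospholipase A2, had 2, 2 and 6 counts in control and 23, 18 and 18 in knockdown, and rose by 2.31 on the log2 scale (SE 0.491, adjusted p = 0.00217 in edgeR's test). It was, like PLA2G4F, a gene of few counts whose groups were far apart and whose knockdown counts alone were high enough for the test. PLA2R1, a membrane receptor for secreted forms, rose by 0.42 (SE 0.149, adjusted p = 0.0467 in edgeR's test), a call lost in 9 of 12 alternatives, including the removal of any library but knockdown replicate 3. LCAT, the plasma cholesterol acyltransferase, fell by 0.48 (SE 0.143, adjusted p = 0.0194 in edgeR's test), and PNPLA3, a lipid droplet acylhydrolase, by 0.30 (SE 0.104, adjusted p = 0.0422 in edgeR's test). LCAT lost its call without control replicate 1 or knockdown replicate 1, at adjusted p = 0.0897 and 0.0764 in edgeR's test. PNPLA3 lost it without control replicates 1 or 2 or knockdown replicates 1 or 2, at adjusted p = 0.0516 to 0.185.

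Downstream of phospholipase A2, more eicosanoid synthesis genes were called higher than lower. This list was drawn up with earlier results of these data known, so its counts are a description. The share called higher also varied with abundance. It was 14.6% to 20.4% of tested genes between 0 and 3 on the log2 CPM scale, where PTGS1, TBXAS1, ALOX12B and CYP2J2 lie. Of 32 listed, 23 could be tested: 11 rose (47.8%, against 13.3% of all tested genes), 2 fell (8.70%, against 11.9%) and 10 were not called, with a median log2 fold change of 0.36 against 0.00 over all tested genes. PTGS1, the constitutive cyclooxygenase, had 24, 38 and 34 counts in control and 86, 89 and 99 in knockdown, a log2 fold change of 1.30 (SE 0.215, adjusted p = 0.000261 in edgeR's test). The inducible PTGS2 was all but undetected, with 0 counts in control and 0, 1 and 1 in knockdown. PTGES, which makes prostaglandin E2 from the cyclooxygenase product, rose by 0.60 (SE 0.0928, adjusted p = 0.000138 in edgeR's test), and TBXAS1, thromboxane synthase, by 0.79 (SE 0.223, adjusted p = 0.0147). HPGD, the enzyme that inactivates prostaglandins, fell from 945, 1026 and 974 counts to 593, 731 and 642, by 0.79 on the log2 scale (SE 0.0941, adjusted p = 8.85e-06 in edgeR's test). The other prostaglandin E synthases, PTGES2 and PTGES3, named here after their values were seen, were better counted and had log2 fold changes of -0.16 and -0.06 (adjusted p = 0.128 and 0.482 in edgeR's test). On the leukotriene side ALOX5 had 0 counts in each control library and 4, 3 and 5 in knockdown, too few to test, and its partner ALOX5AP gave 0.38 (SE 0.243, adjusted p = 0.287 in edgeR's test). LTA4H and MGST2, which make leukotrienes B4 and C4 and were also named after their values were seen, rose by 0.32 (SE 0.0575, adjusted p = 0.000476 in edgeR's test) and 0.36 (SE 0.0880, adjusted p = 0.00557). LTC4S, the leukotriene C4 synthase, and MGST3, named in the same way, were not called. They had log2 fold changes of -0.15 and 0.16 (SE 0.262 and 0.0851, adjusted p = 0.732 and 0.189 in edgeR's test). GGT5, which trims leukotriene C4 and other glutathione conjugates, rose by 0.62 (SE 0.126, adjusted p = 0.00147 in edgeR's test). DPEP1, which trims the product further, rose by 3.26 (SE 0.473, adjusted p = 7.01e-05 in edgeR's test). It had 6, 2 and 2 counts in control and 38, 23 and 54 in knockdown, so the knockdown counts alone were high enough for the test. ALOX12B, a skin lipoxygenase, and CYP2J2, an epoxygenase, rose by 0.49 (SE 0.128) and 0.45 (SE 0.138). TBXAS1 lost its call without control replicate 2 (adjusted p = 0.058 in edgeR's test) and ALOX12B without control replicate 1 (0.0543). CYP2J2 lost it without control replicates 1 or 3 or knockdown replicate 1 (0.0647 to 0.132), and with the abundance trend removed (0.0816). Of the called genes with smaller changes, EPHX2 (log2 fold change 0.30, adjusted p = 0.0208 in edgeR's test) lost its call in 4 of 12 alternatives. PTGR1, the other gene that fell (-0.24, adjusted p = 0.0419), lost it in 6 of 12.

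**Figure D5:**
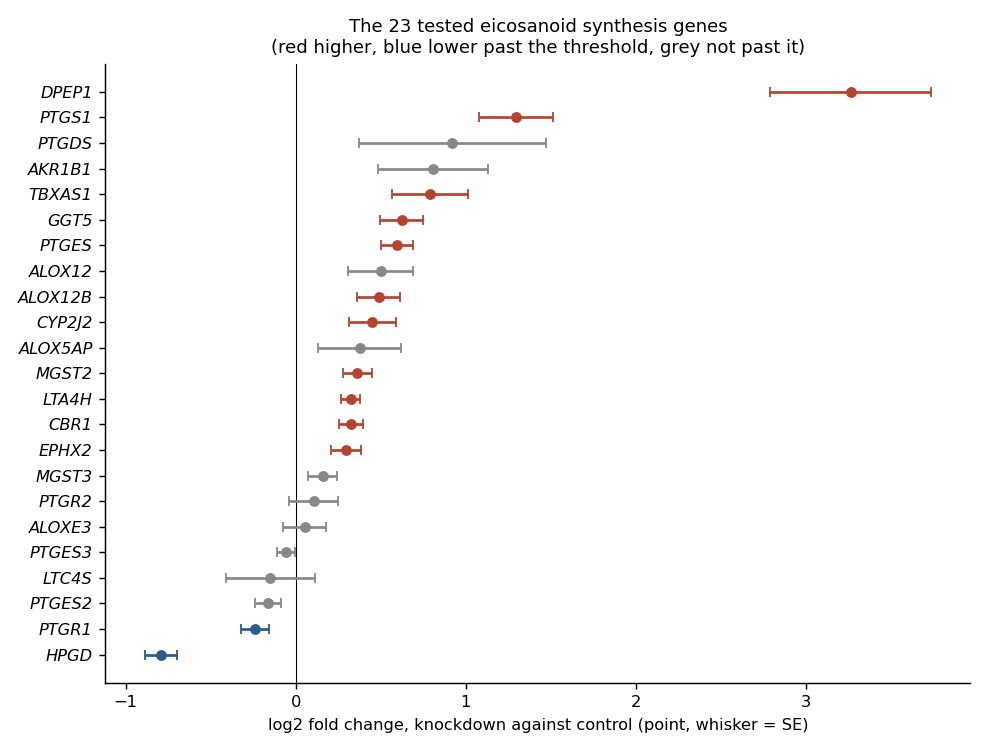
Log2 fold change (knockdown against control, horizontal axis, SE whiskers) of the 23 tested eicosanoid synthesis genes, red where called higher, blue where called lower and grey where not called. DPEP1 at 3.26, with few counts in control, and PTGS1 at 1.30 lead, and HPGD at -0.79 is lowest.

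Receptors and transporters of eicosanoids gave no call. Of 17, 8 could be tested in edgeR, with 0 past the threshold, against 13.3% higher and 11.9% lower of all tested genes. At an unadjusted p under 0.05 in edgeR's test 1 was higher and 0 lower, and DESeq2 called 0. The median log2 fold change was 0.21. In 3 of the 8 every knockdown library was above every control library (20.6% of all tested genes), and in 0 below (18.2%). With 8 genes, nothing is read from the lack of calls. Genes of fatty acid activation, desaturation, elongation and return to phospholipids were called in both directions: of 20, 19 could be tested, 2 rose (13.3% of all tested genes did) and 4 fell (11.9%), with a median log2 fold change of 0.03. ACSL6, a fatty acyl-CoA ligase, rose by 1.197 (SE 0.104, adjusted p = 2.48e-07 in edgeR's test) and LPCAT1, a lysophosphatidylcholine acyltransferase, by 0.64 (SE 0.0535, adjusted p = 1.63e-07). FADS2, FADS1, LPCAT2 and ACSL3 fell by 0.52, 0.47, 0.38 and 0.29 on the log2 scale (SE 0.0716, 0.0548, 0.0657 and 0.0599). FADS1 and FADS2 are the desaturases that build arachidonic acid from shorter precursors. The enzymes most tied to arachidonate reacylation, ACSL4, MBOAT7 and LPCAT3, had log2 fold changes of -0.15, -0.10 and 0.09 (adjusted p = 0.0974, 0.230 and 0.552 in edgeR's test). Of 26 genes that clear lysophospholipids and platelet activating factor or form related lipids, 23 could be tested, 6 rose (26.1%, against 13.3% of all tested genes) and 2 fell (8.70%, against 11.9%), with a median of 0.02. PLA2G7, the secreted platelet activating factor hydrolase, rose from 35, 35 and 38 counts to 81, 99 and 96, by 1.14 on the log2 scale (SE 0.194, adjusted p = 0.000324 in edgeR's test). The other 5 that rose, GDPD1, PLD1, PLD2, NAPEPLD and ABHD6, and the 2 that fell, ABHD3 and PAFAH1B2, changed by less than 0.5 on that scale. Several of these calls rested on single libraries: the number higher was 3 without control replicate 1, and the number lower was 0 without control replicates 2 or 3 or knockdown replicate 1. ABHD6 lost its call on removal of any 1 library, at adjusted p = 0.0628 to 0.0992 in edgeR's test. ABHD3 lost it in 4 of the 12 alternatives, and PAFAH1B2 and GDPD1 in 5 each.

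Among all tested genes, the 5 whose profile over the 6 libraries was most like that of PLA2G4D were EDN3, ABCB1, CACNA1E, SOX8 and GALNT8. Likeness was the root mean square difference of log2 CPM after the control mean of each gene was taken off, and it ran from 0.143 for EDN3 to 0.257 for GALNT8. EDN3, an endothelin peptide gene, had mean levels of 4.40 CPM in control and 18.9 in knockdown, and ABCB1, a drug efflux pump, 12.2 and 51.5. The measure itself selects genes with a change of like size, so nothing is read from the nearness of their log2 fold changes. These lay between 2.08 and 2.27, beside the 2.24 of PLA2G4D. PLA2G4F, with a log2 fold change of 2.93, was not among the 5, and nothing is read from that either.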

How the data were processed

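RNA was measured in 3 control and 3 CNOT7 knockdown libraries of SW480 cells. Total RNA was isolated with TRIzol and made into libraries with a NEBNext Ultra kit. The authors deposited whole-number read counts per gene, not normalized, for 58735 genes in a single table with gene lengths and GRCh38 positions. All 58735 identifiers and positions matched GENCODE release 29. The submitters' processing notes name CASAVA 1.8, fastp, HISAT2 2.0.5, featureCounts 1.5.0-p3 and DESeq2 1.20.0, without their settings. The strand setting, the handling of reads over shared exons and the way mRNA was enriched are not given in the sources used here.

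Counts were fitted with edgeR 4.0.16 in R 4.3.3 (filterByExpr, TMM, quasi-likelihood test), and p-values were adjusted by Benjamini-Hochberg over all 17574 tested genes, with a threshold of 0.05. CPM values were scaled by TMM, and TPM used the deposited lengths. Alternatives were DESeq2 1.42.0, RLE factors, removal of the trend with abundance by cyclic loess (limma 3.58.1), a replicate block, no filter on low counts, a minimum of 10 counts per library, and leaving out each library. The fit was tested on simulated counts. Libraries of a group differed by more than sampling noise (chi-square per gene 3.25 to 10.6), so each counted once.

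The members and gene lists were chosen with earlier results of these data known. Named genes were CNOT7, the members, JMJD7 and its read-through, called or nearest neighbours, at most 8 called genes per list with the largest changes, PTGS1, PTGS2, ALOX5, ALOX5AP, LPCAT3, MBOAT7 and ACSL4, and the 5 genes most like PLA2G4D. Of the immune markers, 1 listed gene is not reported here. Start regions came from RefSeq (GRCh38.p14).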

Additional observations from a re-analysis of the deposited data

How the results depend on the processing

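PLA2G4D (log2 fold change 2.20 to 2.29 over 12 alternatives), PLA2G4F (2.72 to 3.12 over 11) and PLA2G12A (0.31 to 0.39 over 12) kept their direction and their call in all of them. These alternatives reuse the libraries by which PLA2G4D was chosen. For PLA2G4D the kept call is therefore a description and carries no test. PLA2G16 (0.29 to 0.46) lost its call without knockdown replicate 1 alone. PLA2G15 (0.18 to 0.32) gained one in 3 alternatives and PLA2G4C (0.27 to 0.65) in none. PLA2G6 turned to -0.0544 with the abundance trend removed and ran from -0.0452 to 0.109 when 1 library was left out, below 0 without control replicate 2 and without knockdown replicates 1 or 3. JMJD7-PLA2G4B turned to -0.0305 without control replicate 2, and VPS39 to 0.00636 with the abundance trend removed. Over the 47 single genes followed, 561 values were recomputed: 491 kept their direction and side of the threshold, 56 lost the call, 8 gained one and 6 changed sign.

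Removing the abundance trend gave 1 eicosanoid synthesis gene lower, 4 reacylation genes higher and 1 lysophospholipid gene lower. Of the other phospholipase A2 genes 1 was higher under DESeq2, RLE factors, trend removal, no filter and at least 10 counts in every library, and 1 was lower under DESeq2. Without members that share exonic bases on the same strand, the share of PLA2G4D was 12.2% in control and 34.1% in knockdown. Leaving out 1 library at a time gave 3 (without knockdown replicate 1) to 5 members higher and 0 to 0 lower, and CNOT7 at -2.12 to -1.99. Eicosanoid synthesis genes ran from 9 to 11 higher and 1 to 2 lower, receptors 0 to 1 higher and 0 to 0 lower, reacylation genes 2 to 2 higher and 4 to 5 lower, lysophospholipid genes 3 to 6 higher and 0 to 3 lower, neighbours 0 to 1 higher and 0 to 1 lower, and other phospholipase A2 genes 1 to 2 higher and 0 to 2 lower. The share of PLA2G4D ran from 7.03% to 7.78% in control and 22.5% to 23.6% in knockdown. Over all genes 1626 to 2323 were higher, fewest without knockdown replicate 1, and 1367 to 2219 lower, fewest without control replicate 3. For each of these the cause was not tested.

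Deviations of same-numbered libraries from their group means had correlations of 0.02, 0.15 and -0.02 over all tested genes. The other pairs of a control and a knockdown library ran from -0.15 to 0.13, so replicate 2 gave the highest value. The SE of CNOT7 was 0.0453 with a replicate block, against 0.0734 in the main fit. Whether the numbers pair the libraries was not tested further. With the replicate block 3202 genes were higher and 3306 lower, with 2 receptors higher, 4 reacylation genes higher, and 1 neighbour higher and 2 lower.

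Depth limits PLA2G4A, PLA2G4B and PLA2G4E, which had at most 14 counts in a library. The call of PLA2G16 turned on a single library. PLA2G15 was not called in the main fit, and whether it was called turned on single libraries and on the replicate block.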
